A study of Mus musculus with 8 samples.

Results

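Macrophages that sense bacteria place proteins on their surface that tell T cells how to respond, and transcripts of 10 such proteins are described here: Cd40, Cd80, Cd86, Cd274, Pdcd1lg2, Icosl, Cd69, Cd83, Cd44 and Icam1. They were taken by gene symbol, as every probe of the array that the platform annotation assigned to one of the 10 genes, which gave 27 of 45281 probes and 10 of 19057 genes with a symbol. RNA came from primary macrophages grown from the bone marrow of male mice aged 10 weeks on the c57Bl6/J background. It was hybridised to Illumina bead arrays, which read each transcript as the brightness of 1 or more probes. The 4 groups were Bcl6-/- macrophages stimulated with LPS, unstimulated Bcl6-/- macrophages, wild-type macrophages stimulated with LPS, and unstimulated wild-type macrophages. Bcl6 is a transcriptional repressor, and LPS is the bacterial cell-wall lipid sensed through Tlr4. The labels do not state the LPS dose, its duration or which part of Bcl6 was deleted. Each group had 2 arrays that the labels call technical replicates, so every p-value measures only the spread between such arrays, and no variation between mice or cultures enters a test.

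T cells need a second signal beside antigen, and the B7 proteins Cd80 and Cd86 give it by binding Cd28, or withhold it by binding Ctla4. Icosl binds Icos, while Cd274 (PD-L1) and Pdcd1lg2 (PD-L2) bind the inhibitory receptor Pdcd1. Cd40 works in the other direction: it is the receptor through which helper T cells, by their ligand Cd40lg, activate the macrophage. Icam1 holds the cells together by binding the integrin LFA-1, and Cd44 is the receptor for hyaluronan in the matrix. Cd69 and Cd83 are used as early and late markers of activated leukocytes.

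Of the 27 probes, 18 were kept because they were detected (detection p under 0.01) on at least 2 arrays, and 7 were detected on 0 arrays. Only kept probes were tested, and a probe could be kept through the group in which it was bright. Cd86 kept 3 of 3 probes, Cd40 4 of 5, Cd44 5 of 9, and Cd80, Icosl and Cd69 1 of 2 each. Cd274, Cd83 and Icam1 had 1 probe, which was kept. Pdcd1lg2 had 1 probe, which was detected on 0 arrays, so 9 genes were tested. Its raw intensity was 114 and 115 on the Bcl6-/- LPS arrays, 118 and 120.4 on the unstimulated Bcl6-/- arrays, 130 and 118 on the wild-type LPS arrays, and 133 and 137 on the unstimulated wild-type arrays. Pdcd1lg2 was thus not measured above background in any group, although Cd274, its neighbour on chromosome 19, was bright in all 4.

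Before the comparisons, the labels were set against the data. The Bcl6 probe had a log2 signal of 12.60 and 12.33 on the unstimulated arrays labelled Bcl6-/-, against 10.95 and 10.92 on the unstimulated wild-type arrays, and 9.92 and 9.93 against 10.75 and 10.99 under LPS. It thus showed no loss of the transcript in the unstimulated cells. Whether the probe lies outside the deletion or the label is wrong cannot be told apart, and "labelled knockout" below means the arrays with the Bcl6-/- label. Of 10 macrophage markers, 8 were detected, among them Csf1r and Adgre1, each on both arrays of every group. Of 10 dendritic cell markers only Fscn1 was detected, with Flt3 and Zbtb46 not detected, and 0 of 8 B cell markers with a probe and 0 of 10 stromal markers were detected. Granulocyte markers were detected for 9 of 10 genes, S100a8 the brightest. Both arrays of a group detected 9 in either wild-type group and 5 in either labelled knockout group. Without LPS 9 of 9 were called lower in the labelled knockout by the rule given below, against 3.77% of all kept probes. Under LPS 4 of 9 were, against 5.45%. The summed signal of the granulocyte markers was 10100 to 10800 in the labelled knockout with LPS and 8750 to 9600 without, against 18800 to 19000 in wild type with LPS and 23200 to 26100 without. The part of granulocytes in the differences between genotypes was not tested, and in such bulk RNA fewer cells of a type and less RNA per cell cannot be told apart. Arrays of a group correlated across kept probes with r of 0.992 to 0.994, and arrays of different groups with r of 0.889 to 0.954.

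Changes are given as log2 differences of normalised signal ± the standard error of a limma fit over all 14418 kept probes. A probe was called at a Benjamini-Hochberg adjusted p under 0.05 over those probes together with a change of at least 2-fold, and "rose" and "fell" are used only of called probes. Signals of different probes are not comparable in level, and probes of 1 gene are not independent of each other. The comparisons share arrays, so their values are set side by side and no overlap between them is read as a result.

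With LPS, the receptor Cd40 and the marker Cd69 rose most among these genes, and Cd274, Icosl, Icam1 and Cd83 rose less, in cells of either genotype. The B7 ligands Cd80 and Cd86 were not called for LPS in either. In the labelled knockout 10 of 18 probes in 7 genes rose and 0 fell, where 14.0% of all kept probes were called (7.59% higher and 6.39% lower). In wild type 9 of 18 probes in 6 genes rose and 0 fell, where 13.5% of all kept probes were called (7.93% higher and 5.58% lower). The median change of the 18 probes was 1.53 in the labelled knockout, or 1.41 with probes below background at their bound, and 0.97 in wild type. Over all kept probes it was -0.09 and -0.07. The LPS and unstimulated arrays did not overlap for 16 of 18 probes in the labelled knockout, against 72.6% of all kept probes, and for 17 of 18 in wild type, against 74.1%.

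**Figure D1:**
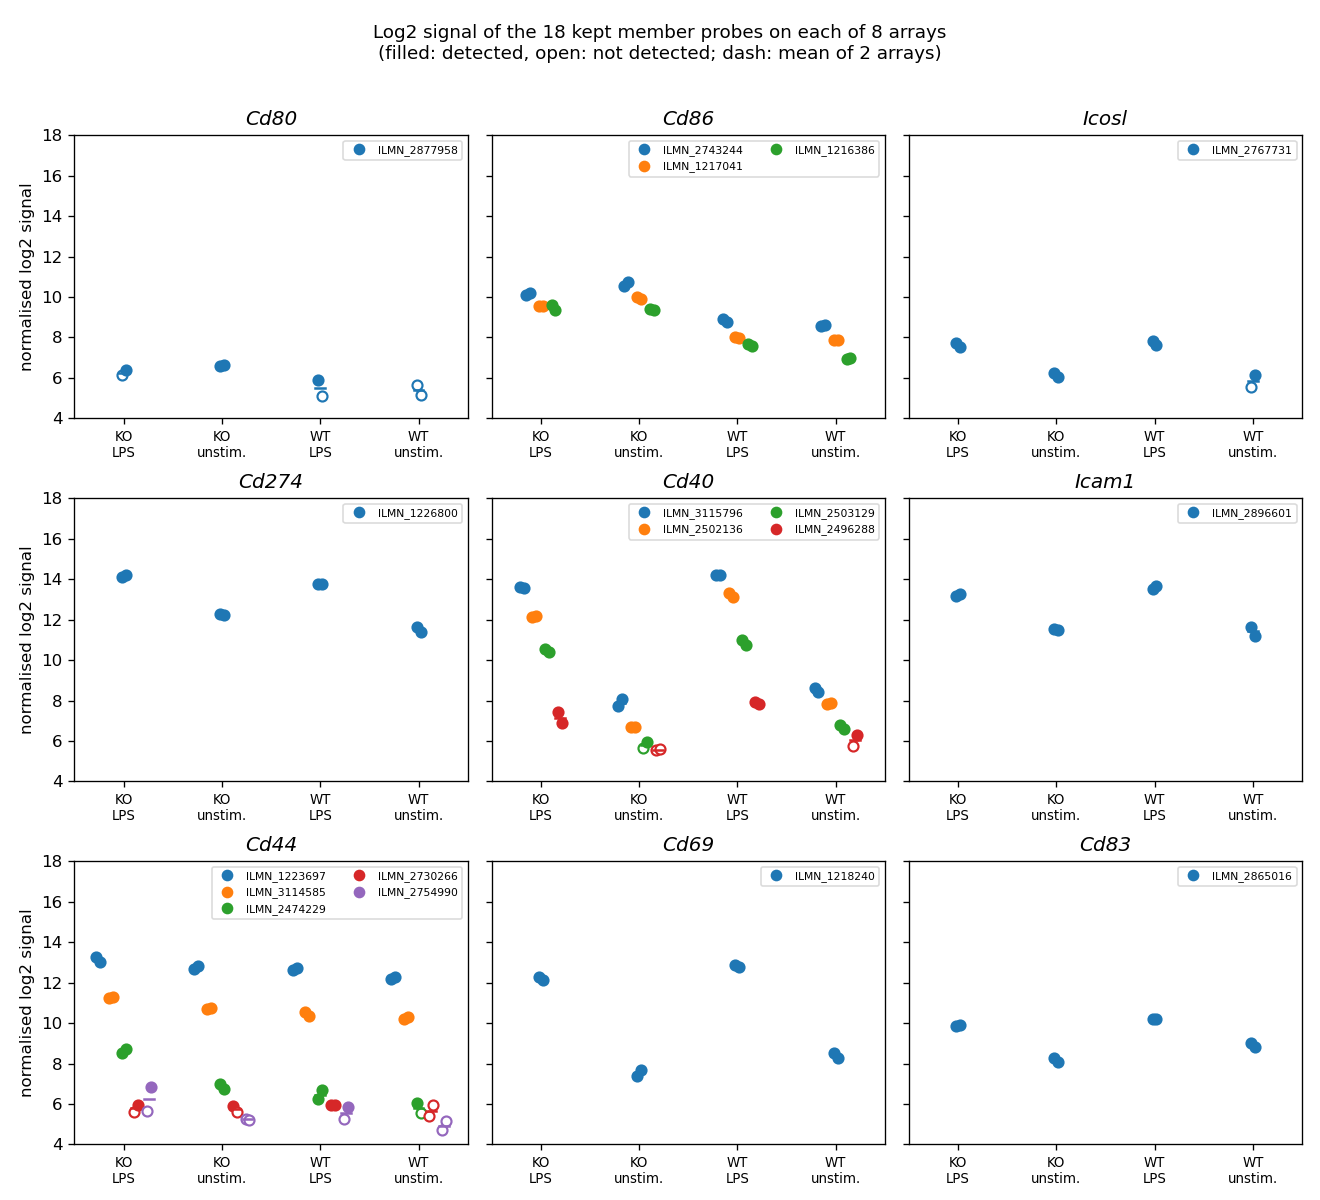
Normalised log2 signal (vertical axis) of the 18 kept probes on each of the 8 arrays, by gene and group, with detected arrays filled, undetected arrays open and a dash at the mean of the 2 arrays. Cd40 and Cd69 separate the LPS arrays from the unstimulated ones, and Cd86 separates the labelled knockout arrays from the wild-type ones.

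The 3 bright Cd40 probes read one pattern. The brightest (ILMN_3115796) had a log2 signal of 13.60 and 13.58 on the labelled knockout LPS arrays, 7.74 and 8.06 without LPS, 14.22 and 14.19 on the wild-type LPS arrays, and 8.61 and 8.40 without LPS. The groups did not overlap, and their order was wild type with LPS, labelled knockout with LPS, unstimulated wild type, unstimulated labelled knockout. With LPS this probe rose by 5.69 ± 0.14 in the labelled knockout (limma adjusted p = 6.02e-08) and by 5.70 ± 0.14 in wild type (limma adjusted p = 9.27e-08). The difference between those effects was -0.01, with a 95% interval of -0.46 to 0.44. ILMN_2502136 rose by 5.48 and 5.36 and ILMN_2503129 by 4.67 and 4.19, the labelled knockout first in each pair. A further probe, ILMN_2496288, is annotated to a non-coding Cd40 transcript variant. It was undetected on the unstimulated labelled knockout arrays, where LPS made it at least 2.53-fold higher, and it rose by 1.85 ± 0.22 in wild type. Its call in the labelled knockout was lost without background correction, where the change was 0.73, and on the authors' processed values, where it was 0.80.

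Between genotypes 1 of 4 kept Cd40 probes was called, lower in the labelled knockout with and without LPS. That probe, ILMN_2502136, read 12.13 and 12.19 on the labelled knockout LPS arrays against 13.31 and 13.11 on the wild-type LPS arrays, and 6.67 and 6.69 against 7.82 and 7.88 without LPS. It fell by 1.05 on the log2 scale under LPS (limma adjusted p = 0.000209) and by 1.16 without it (limma adjusted p = 0.000164). The other 3 probes differed by -0.72 to -0.41 under LPS, each past the adjusted p and under 2-fold. Without LPS the bright probes ILMN_3115796 and ILMN_2503129 differed by -0.61 and -0.89, also past the adjusted p and under 2-fold. Without replicate 2 of the unstimulated labelled knockout ILMN_2503129 was called at -1.02. ILMN_2496288 was undetected on both unstimulated labelled knockout arrays and did not pass the adjusted p (limma adjusted p = 0.151). The unstimulated call was lost with a background offset of 50 (-0.95), without background correction (-0.70) and on the authors' values (-0.72). The call under LPS was lost with cyclic loess normalization (-0.85) and without replicate 1 of wild type with LPS (-0.95).

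Cd69, a C-type lectin that appears early on activated leukocytes, was measured by ILMN_1218240. Its log2 signal was 12.26 and 12.15 on the labelled knockout LPS arrays, 7.38 and 7.66 without LPS, 12.86 and 12.79 on the wild-type LPS arrays, and 8.51 and 8.26 without LPS. The 4 groups did not overlap and stood in the same order as for Cd40. With LPS Cd69 rose by 4.68 ± 0.14 in the labelled knockout (limma adjusted p = 1.74e-07) and by 4.44 ± 0.14 in wild type (limma adjusted p = 3.54e-07). Between genotypes it changed by -0.62 ± 0.14 under LPS and by -0.86 ± 0.14 without it, both past the adjusted p and under 2-fold. Without replicate 2 of the unstimulated labelled knockout the unstimulated value was -1.004 and was called. The other Cd69 probe was detected on too few arrays to be kept.

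Cd83, which marks mature dendritic cells and other activated leukocytes, read 9.83 and 9.89 on the labelled knockout LPS arrays, 8.26 and 8.06 without LPS, 10.19 and 10.20 on the wild-type LPS arrays, and 9.01 and 8.82 without LPS. No 2 groups overlapped. It rose with LPS by 1.70 ± 0.12 in the labelled knockout and by 1.28 ± 0.12 in wild type (limma adjusted p = 1.45e-05 and 7.47e-05). The unstimulated labelled knockout differed from wild type by -0.75 ± 0.12, past the adjusted p and under 2-fold. Under LPS the difference was -0.33 ± 0.12 and did not pass the adjusted p (limma adjusted p = 0.0569).

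Among the ligands of T cell receptors, Cd274, which inhibits T cells through Pdcd1, read 14.10 and 14.19 on the labelled knockout LPS arrays, 12.30 and 12.25 without LPS, 13.74 and 13.75 on the wild-type LPS arrays, and 11.65 and 11.40 without LPS. The groups did not overlap, and the labelled knockout was the higher genotype with and without LPS. LPS raised it by 1.87 ± 0.12 in the labelled knockout (limma adjusted p = 7.37e-06) and by 2.23 ± 0.12 in wild type (limma adjusted p = 3.08e-06). Between genotypes it changed by 0.40 ± 0.12 under LPS and 0.75 ± 0.12 without, both past the adjusted p and under 2-fold.

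Icosl, the ligand of Icos, was a dim transcript on 1 kept probe. It read 7.75 and 7.52 on the labelled knockout LPS arrays, 6.25 and 6.06 without LPS, 7.81 and 7.65 on the wild-type LPS arrays, and 5.55 and 6.13 without LPS, where 1 of the 2 arrays detected it. The LPS arrays lay above the unstimulated ones, and the genotypes overlapped both with and without LPS. Icosl rose by 1.48 ± 0.19 in the labelled knockout (limma adjusted p = 0.000390) and by 1.89 ± 0.19 in wild type (limma adjusted p = 0.000104). Without background correction neither change reached 2-fold, at 0.80 and 0.99, and on the authors' values that in the labelled knockout was 0.84. The genotypes differed by -0.10 under LPS (95% interval -0.54 to 0.34) and by 0.31 without it (95% interval -0.13 to 0.75).

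Icam1, the ligand of LFA-1, read 13.18 and 13.25 on the labelled knockout LPS arrays, 11.55 and 11.47 without LPS, 13.51 and 13.68 on the wild-type LPS arrays, and 11.65 and 11.18 without LPS. The genotypes overlapped without LPS and did not overlap with it. Icam1 rose with LPS by 1.70 ± 0.16 in the labelled knockout and by 2.18 ± 0.16 in wild type (limma adjusted p = 6.85e-05 and 1.77e-05). Under LPS the genotypes differed by -0.38 ± 0.16 (limma adjusted p = 0.0915) and without it by 0.10 ± 0.16 (limma adjusted p = 0.670).

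Promoter windows, 250 bases before to 50 after the annotated start, were in RefSeq's table of GRCm38.p6 for 6 of the 10 genes, Cd80, Cd274, Pdcd1lg2, Icosl, Cd44 and Icam1. The windows of Icam1 (chr9:21015690-21015989, plus strand), Icosl (chr10:78069118-78069417, plus strand) and Cd274 (chr19:29367188-29367487, plus strand) are shown because these 3 genes rose with LPS in either genotype. Capitals mark every match, on either strand, to 5 motifs of factors that LPS and cytokines activate: GGG and CC with any 5 bases between them and GGANNTTCC (kappaB forms), GAAA given 2 times with any 2 bases between (an interferon-response element), TTCNNNGAA (a palindrome bound by Stat proteins) and TGANTCA (AP-1).
Icam1: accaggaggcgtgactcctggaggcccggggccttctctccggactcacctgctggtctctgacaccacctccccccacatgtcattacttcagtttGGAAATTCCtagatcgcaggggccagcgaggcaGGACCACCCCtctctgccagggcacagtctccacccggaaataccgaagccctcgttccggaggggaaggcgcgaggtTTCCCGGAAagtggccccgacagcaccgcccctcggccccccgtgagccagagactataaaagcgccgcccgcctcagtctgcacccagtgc
Icosl: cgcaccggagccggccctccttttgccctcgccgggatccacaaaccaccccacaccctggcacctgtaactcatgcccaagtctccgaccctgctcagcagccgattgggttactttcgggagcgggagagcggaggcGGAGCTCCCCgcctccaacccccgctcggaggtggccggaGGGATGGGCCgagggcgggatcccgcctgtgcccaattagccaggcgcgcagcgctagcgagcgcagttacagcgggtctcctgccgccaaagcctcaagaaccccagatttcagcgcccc
Cd274: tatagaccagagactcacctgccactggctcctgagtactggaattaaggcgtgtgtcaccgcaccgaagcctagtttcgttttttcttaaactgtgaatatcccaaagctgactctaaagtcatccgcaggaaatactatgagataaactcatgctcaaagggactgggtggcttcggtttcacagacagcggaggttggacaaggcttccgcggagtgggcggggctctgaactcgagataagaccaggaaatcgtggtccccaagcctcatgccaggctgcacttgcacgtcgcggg
The Icam1 window holds GGAAATTCC at -153 to -145 from the start and TTCCCGGAA at -42 to -34. It also holds a match to the first kappaB form, on the minus strand, at -120 to -111. The Icosl window holds 2 matches to the first kappaB form, at -111 to -102 and -71 to -62, and the Cd274 window holds 0 matches to the 5 motifs. No matches in these windows overlapped each other. Of 32851 such windows 50.8% held the first kappaB form, 4.26% GGANNTTCC, 3.44% the interferon-response element, 8.30% TTCNNNGAA and 7.81% TGANTCA. A match says only that the letters are there, and 0 matches only that they are not in this window.

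**Figure D2:**
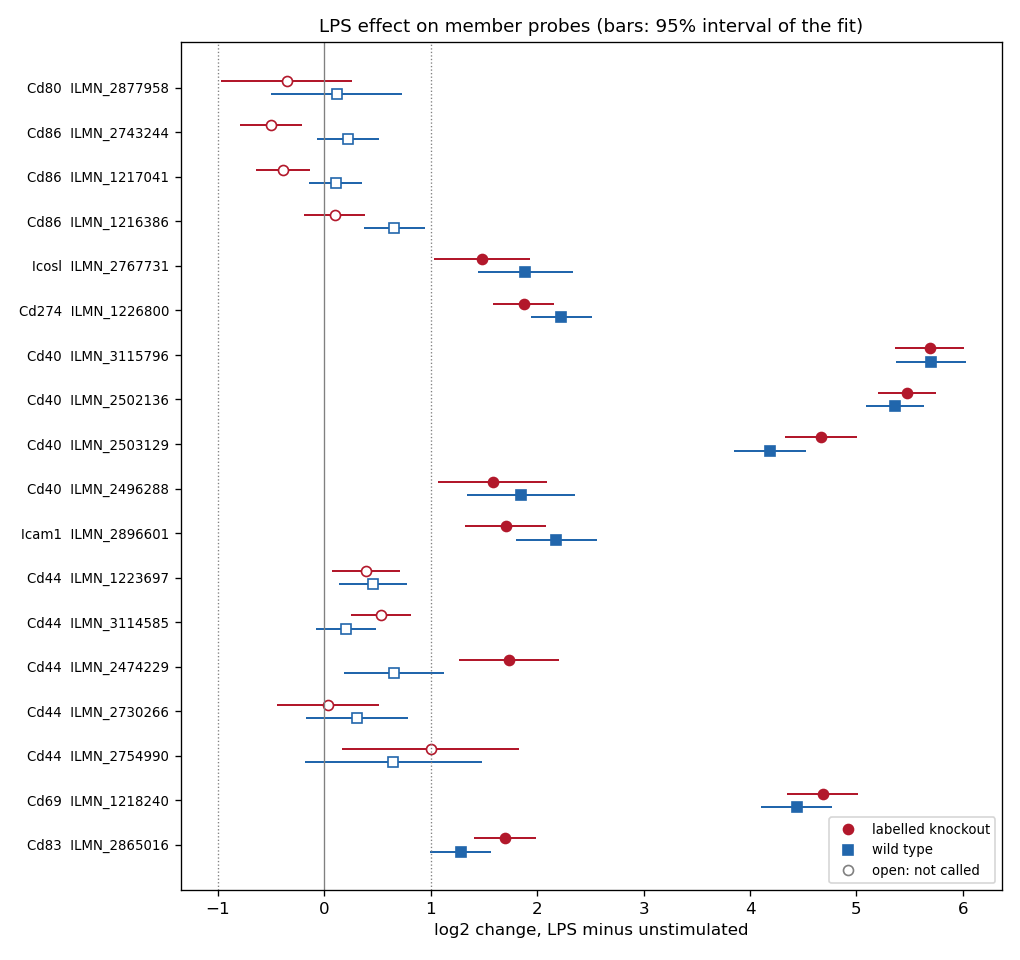
Change with LPS, as log2 LPS minus unstimulated (horizontal axis), for the 18 kept probes in the labelled knockout (circles) and wild type (squares), with 95% intervals of the fit, filled where called, and dotted lines at 2-fold. The Cd69 probe and all Cd40 probes but ILMN_2496288 lie furthest to the right, and the Cd80 and Cd86 probes are open in both genotypes.

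The labelled knockout was next compared with wild type. Cd86 was the member that differed most between genotypes without LPS, higher in the labelled knockout on each of its 3 probes, by 4.10-fold to 5.31-fold without LPS and by 2.49-fold to 3.60-fold with it. The kept probe of Cd80, the other B7 ligand, and 1 of 5 kept Cd44 probes were also called higher without LPS. Each of these calls was lost in 5 alternative settings of the processing or arrays. The Cd80 probe left out, detected on 0 arrays, read lower in the labelled knockout. Under LPS 5 of 18 probes were called, 4 higher in 2 genes and 1 lower, where 11.6% of all kept probes were called (6.10% higher and 5.45% lower). Without LPS 6 of 18 were called, 5 higher in 3 genes and 1 lower, where 7.92% of all kept probes were called (4.15% higher and 3.77% lower). The 3 Cd86 probes are among the higher ones in both counts. With only the brightest probe per gene, 1 of 9 members was called under LPS, against 927 of 8307 genes. Without LPS 2 of 9 were, against 706 of 8307. The arrays of the genotypes did not overlap for 15 of 18 probes under LPS and 15 of 18 without it, a share that reached 72.3% and 68.9% over all kept probes. The median change of the 18 probes was 0.15 under LPS and 0.31 without it, or 0.21 with probes below background at their bound, against -0.04 and 0.00 over all kept probes.

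**Figure D3:**
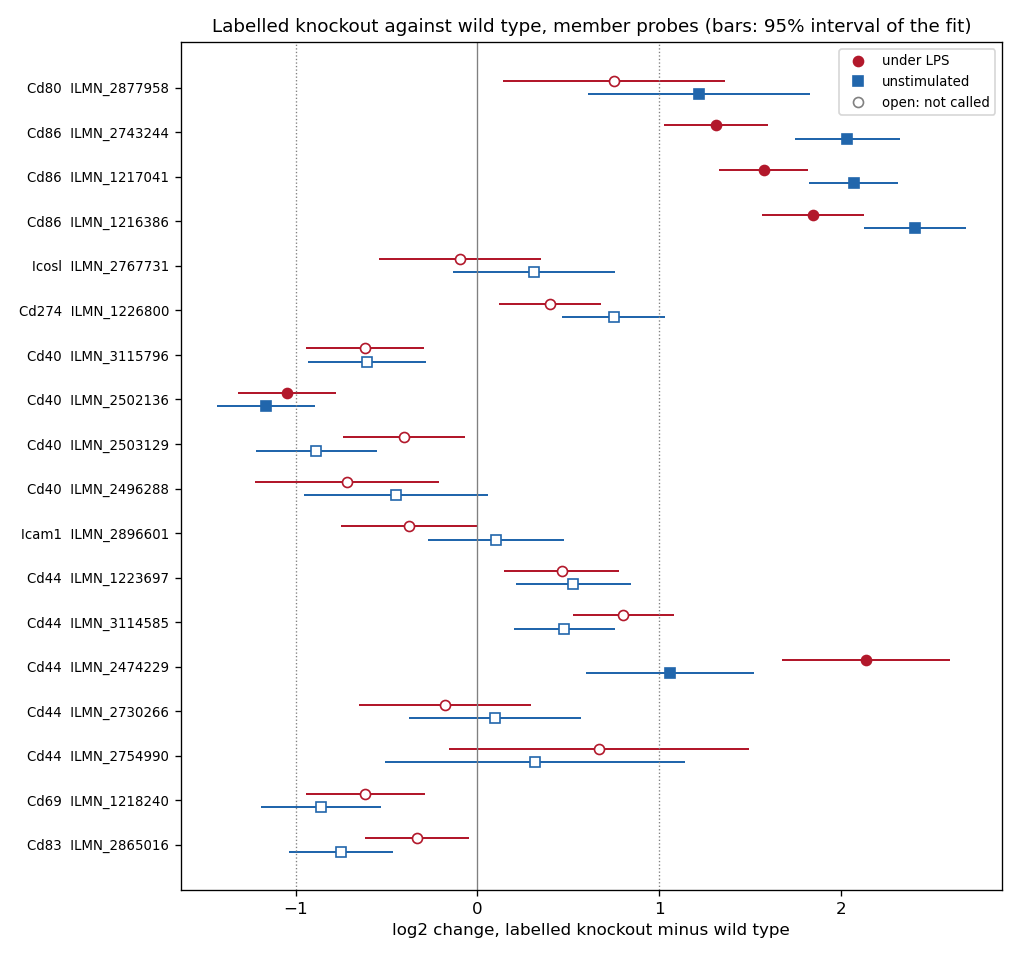
Change between genotypes, as log2 labelled knockout minus wild type (horizontal axis), for the 18 kept probes under LPS (circles) and unstimulated (squares), with 95% intervals of the fit, filled where called, and dotted lines at 2-fold. The 3 Cd86 probes lie beyond 2-fold to the right in both treatments, and 1 of 4 Cd40 probes is filled on the left.

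ILMN_2743244 of Cd86 read 10.09 and 10.19 on the labelled knockout LPS arrays, 10.54 and 10.74 without LPS, 8.91 and 8.74 on the wild-type LPS arrays, and 8.57 and 8.64 without LPS. ILMN_1217041 read 9.58 and 9.53, then 9.99 and 9.91 without LPS in the labelled knockout, against 8.005 and 7.96, then 7.86 and 7.88 without LPS in wild type. ILMN_1216386 read 9.58 and 9.35, then 9.40 and 9.34 without LPS in the labelled knockout, against 7.67 and 7.57, then 6.93 and 6.99 without LPS in wild type. On all 3 probes every labelled knockout array lay above every wild-type array. The changes under LPS were 1.31 ± 0.12, 1.58 ± 0.11 and 1.85 ± 0.12, in that order of probes (limma adjusted p of at most 8.89e-05). Without LPS they were 2.04 ± 0.12, 2.07 ± 0.11 and 2.41 ± 0.12 (limma adjusted p of at most 9.81e-06).

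For LPS itself, Cd86 changed by -0.50, -0.39 and 0.10 on the 3 probes in the labelled knockout and by 0.22, 0.11 and 0.66 in wild type, all under 2-fold. The -0.50 and -0.39 in the labelled knockout passed the adjusted p (limma adjusted p = 0.0109 and 0.01635). So did the 0.66 in wild type (limma adjusted p = 0.00250). The difference between these LPS effects passed the adjusted p on ILMN_2743244, at -0.72 ± 0.17 (limma adjusted p = 0.0413), and was under 2-fold. On the other probes it was -0.50 ± 0.15 (limma adjusted p = 0.0808) and -0.56 ± 0.17 (limma adjusted p = 0.0826). Over all members 0 of 18 probes were called for this difference in the limma fit, where 4.22% of all kept probes were called (1.89% higher and 2.32% lower). An unadjusted limma p under 0.05 was reached by 6 of 18 member probes and by 3622 of all 14418 kept probes.

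Cd80 was near the detection limit. Its kept probe read 6.12 and 6.39 on the labelled knockout LPS arrays, 6.57 and 6.65 without LPS, 5.92 and 5.09 on the wild-type LPS arrays, and 5.63 and 5.14 without LPS. Both unstimulated labelled knockout arrays detected it and neither unstimulated wild-type array did, so the difference is given as at least 1.65-fold higher. That bound is under 2-fold. The call rests on the fitted change of 1.22 ± 0.26, which uses the undetected wild-type values (limma adjusted p = 0.00903). Under LPS the difference between genotypes was 0.75 ± 0.26 (limma adjusted p = 0.0489), under 2-fold, with 1 of 2 arrays of each genotype detecting the probe. Without replicate 1 of wild type with LPS it was 1.16 and was called (limma adjusted p = 0.00839). The unstimulated call was lost with a background offset of 50 (0.79), without background correction (0.50) and on the authors' values (0.57). It was lost too without replicate 2 of unstimulated wild type (adjusted p = 0.0622) and without replicate 2 of the unstimulated labelled knockout (adjusted p = 0.0512). For LPS no change in Cd80 passed the test in the labelled knockout (limma adjusted p = 0.310) or in wild type (limma adjusted p = 0.751), where the unstimulated arrays did not detect it.

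Cd44 probes disagreed in size. The brightest, ILMN_1223697, read 13.29 and 13.003 on the labelled knockout LPS arrays, 12.66 and 12.85 without LPS, 12.64 and 12.72 on the wild-type LPS arrays, and 12.18 and 12.27 without LPS. None of its changes between groups reached 2-fold, with 0.46 ± 0.14 between genotypes under LPS and 0.53 ± 0.14 without, both past the adjusted p. ILMN_3114585 likewise changed by 0.80 ± 0.12 under LPS and 0.48 ± 0.12 without, both past the adjusted p and under 2-fold. A dimmer probe, ILMN_2474229, read 8.51 and 8.71 on the labelled knockout LPS arrays, 6.99 and 6.76 without LPS, 6.27 and 6.67 on the wild-type LPS arrays, and 6.06 and 5.57 without LPS. Its labelled knockout LPS arrays stood well above the other 6. It was higher in the labelled knockout by 2.14 ± 0.20 under LPS (limma adjusted p = 8.77e-05) and by 1.06 ± 0.20 without LPS (limma adjusted p = 0.00473). With LPS it rose by 1.73 ± 0.20 in the labelled knockout (limma adjusted p = 0.000206) and changed by 0.65 ± 0.20 in wild type, a difference of 1.08 ± 0.28 (limma adjusted p = 0.0541). That difference was called with an offset of 50, with detection on at least 4 arrays, with a trended robust variance and without replicate 2 of unstimulated wild type (adjusted p of 0.00400, 0.0461, 0.0134 and 0.0417). Its unstimulated call was lost with a background offset of 50 (0.74), without background correction (0.48), on the authors' values (0.52), without replicate 2 of unstimulated wild type (0.81) and without replicate 1 of the unstimulated labelled knockout (0.94). The platform annotation used here does not say which Cd44 isoforms the probes read. The other 2 kept probes, ILMN_2730266 and ILMN_2754990, were near background and were not called. Without replicate 1 of the labelled knockout with LPS, ILMN_2754990 was called for LPS in the labelled knockout (1.62) and for the labelled knockout under LPS (1.29), against 1.00 and 0.67 with all arrays.

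For each gene with a kept probe, the 2 other genes whose centred log2 profile lay nearest over the 8 arrays were found, by the root-mean-square difference between brightest probes. Cxcl10, a chemokine, was nearest to Cd69, at 0.165, and to Cd40, at 0.585. P2ry13, a nucleotide receptor, and Arap2 lay nearest to Cd86, at 0.126 and 0.128. The nearest to Cd274 was Lrrc8c at 0.0949, to Icam1 the NF-kappaB inhibitor Nfkbie at 0.112, to Icosl Parp12 at 0.176, and to Cd83 Spryd7 at 0.105. Kbtbd6 lay nearest to Cd80 at 0.196, and Map4k4 to Cd44 at 0.0877. The 8 arrays fall into 4 groups, so these distances describe 4 group levels more than 8 separate points.

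Lists of related genes, each by its brightest probe, place the members among their partners. The tumour necrosis factor family also holds costimulatory ligands, of which 4 of 7 were tested. With LPS 2 rose and 1 fell in each genotype, and the genes were not all the same. Over all kept probes 14.0% were called for LPS in the labelled knockout and 13.5% in wild type. Tnfsf9, the ligand 4-1BBL, rose by 2.50 ± 0.19 in the labelled knockout and 2.63 ± 0.19 in wild type. Tnfsf15 was at least 1.59-fold higher with LPS in the labelled knockout, and Tnfsf4, the ligand OX40L, at least 2.08-fold higher with LPS in wild type. The LPS effect differed between genotypes for both, by 1.14 ± 0.28 for Tnfsf15 and -1.12 ± 0.19 for Tnfsf4 (limma adjusted p = 0.0413 and 0.0108). Tnfsf14, known as LIGHT, fell with LPS in either genotype, by 1.77 on the log2 scale in the labelled knockout. It was also called higher in the labelled knockout than in wild type in either treatment, by 2.03 ± 0.11 without LPS.

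Of other B7 and related molecules 9 of 14 were tested. With LPS 2 rose and 2 fell in the labelled knockout, and 2 rose and 3 fell in wild type. Over all kept probes 14.0% and 13.5% were called. Between genotypes 1 was called higher and 2 lower under LPS, and 2 higher and 1 lower without, against 11.6% and 7.92% of all kept probes. Pvr, a ligand of Cd226 and Tigit, rose with LPS by 2.41 ± 0.12 in the labelled knockout and 2.12 ± 0.12 in wild type. Vsir, an inhibitory B7 relative, fell with LPS, at -1.02 ± 0.14 in the labelled knockout and -1.74 ± 0.14 in wild type. Cd276, another B7 relative, was undetected in the unstimulated labelled knockout and at least 3.19-fold lower than in wild type. Havcr2, the receptor Tim-3, was higher in the labelled knockout by 1.32 ± 0.13 under LPS and 1.26 ± 0.13 without. Nectin2 was called lower there under LPS, at -1.17 ± 0.13.

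Downstream of Cd40, 11 of 12 signalling genes were tested. With LPS 7 rose in the labelled knockout and 6 in wild type, with 0 lower, where 7.59% and 7.93% of all kept probes were called higher. The median change of the 11 genes was 1.18 in each genotype, or 0.90 in wild type with genes below background at their bound. Tnfaip3, a brake on NF-kappaB, rose by 3.11 ± 0.13 in the labelled knockout and 2.68 ± 0.13 in wild type, and the subunit gene Nfkb2 by 2.30 ± 0.15 in the labelled knockout and 1.34 ± 0.15 in wild type. The adaptor gene Traf5 was undetected without LPS and at least 2.54-fold higher with it in the labelled knockout and at least 3.08-fold higher in wild type. Between genotypes 4 of 11 were called under LPS, 2 higher and 2 lower, against 11.6% of all kept probes. The kinase gene Map3k14 changed by -1.58 ± 0.54 (limma adjusted p = 0.0438), with 1 of 2 labelled knockout arrays detecting it, Traf2 was at least 2.58-fold lower, and Birc3 was higher by 1.31 ± 0.17. Without LPS 0 of 11 were called in the limma fit, against 7.92% of all kept probes. An unadjusted limma p under 0.05 was reached there by 8 of 11 genes and by 6270 of all 14418 kept probes.

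Of adhesion partners 10 of 16 were tested. With LPS 1 rose in the labelled knockout and 2 in wild type, with 0 lower, where 14.0% and 13.5% of all kept probes were called. The median change of the 10 genes was -0.05 and -0.06. Between genotypes 2 were called under LPS and 1 without, all lower, against 11.6% and 7.92% of all kept probes. Vcam1, the ligand of the integrin VLA-4, was undetected without LPS and at least 13.9-fold higher with it in the labelled knockout and at least 13.1-fold higher in wild type. Itgal, a chain of the Icam1-binding integrin LFA-1, was lower in the labelled knockout under LPS, at -2.10 ± 0.24, with 1 of 2 of its arrays detecting it, and at least 3.54-fold higher with LPS in wild type. Cd48, a ligand of Cd2 and Cd244, was undetected in the labelled knockout and lower there than in wild type, by at least 1.66-fold with LPS and at least 1.70-fold without.

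Of 8 tested among 14 other surface activation markers, 4 rose with LPS in the labelled knockout and 3 in wild type. Over all kept probes 7.59% and 7.93% were called higher. Clec4e, the lectin receptor Mincle, rose by 2.07 ± 0.14 in the labelled knockout and 2.28 ± 0.14 in wild type. Slamf1, a self-binding receptor, was at least 19.8-fold higher with LPS in the labelled knockout, and under LPS it was 4.30 ± 0.12 above wild type, where 1 of 2 arrays detected it. The urokinase receptor Plaur was higher in the labelled knockout by 2.09 ± 0.14 under LPS and 1.67 ± 0.14 without. Among the receptors on T cells that bind the members, Ctla4, Icos, Pdcd1, Cd40lg and Btla were not kept, and Cd28 was the 1 of 6 tested. Cd28 fell with LPS, at -2.59 ± 0.15 in the labelled knockout, where the LPS arrays did not both detect it, and at -2.20 ± 0.15 in wild type. The T cell markers Cd3e, Cd3d and Cd3g were not kept on these arrays.

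**Figure D4:**
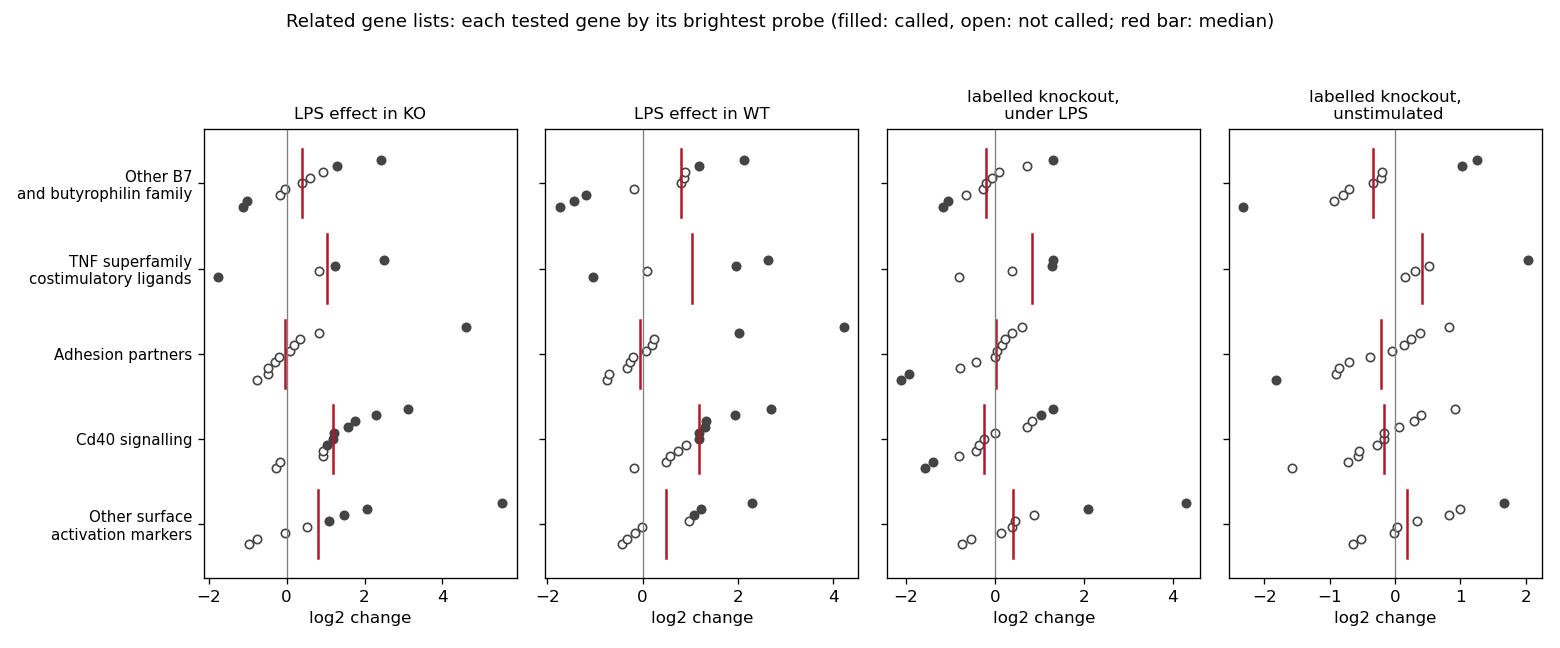
Change of each tested gene of 5 related lists, by its brightest probe, in 4 comparisons (horizontal axes, log2 change), filled where called, with a red bar at the list's median. Slamf1 lies furthest right for LPS in the labelled knockout, and the Cd40 signalling genes centre near 1.18 for LPS in both genotypes.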

How the data were processed

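Total RNA of 8 arrays in 4 groups was read on 1-colour Illumina bead arrays. Per the file headers, the deposited table pairs the average intensity of every probe on an array, before normalization, with a detection p-value. They also deposited processed values, an intensity on a linear scale with near-equal medians, used as an alternative. GenomeStudio is the tool named per the submitters' processing notes, and the sources used here do not name their normalization. The unnormalized values were background-corrected by nec in limma 3.58.1 (R 4.3.3, offset 16), log2-transformed and quantile-normalized. Of 45281 probes, 14418 were kept for reaching detection (p under 0.01) on 2 or more arrays. A limma model of 4 group means was fitted over the 8 arrays (4 residual and 4.36 prior degrees of freedom), with 5 contrasts, each adjusted by Benjamini-Hochberg over all kept probes. Where both arrays of the dimmer group failed detection, a difference is given as at least N-fold, measured from that group's detection floor or, where higher, from the probe itself. The number of arrays limits the precision.

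Symbols came from the platform annotation. All member probes are accounted for, likeness took 2 genes per member, and list genes were named by the largest changes among called ones, at most 3 per list and comparison. The members, lists and tests were chosen with earlier results of these data known. Same-numbered arrays of different groups did not deviate together (correlations of -0.0198 to 0.0122 over 6 pairs), so numbers were not used as pairs. Alternatives were the background offset and correction, normalization, filter, probe choice, fold minimum, variance model, block and leaving out each array.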

Additional observations from a re-analysis of the deposited data

Results flagged for a closer look

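Cd86 was singled out because its response to LPS differed between genotypes on ILMN_2743244. The change with LPS was -0.50 in the labelled knockout and 0.22 in wild type, a difference of -0.72 ± 0.17 (limma adjusted p = 0.0413 over all kept probes). The 2 labelled knockout LPS arrays lay below the 2 unstimulated ones, and the 2 wild-type LPS arrays lay above theirs. Over the alternatives the difference ran between -0.84 and -0.57 and its adjusted p between 0.00197 and 0.131. The other Cd86 probes read -0.50 and -0.56 and did not pass the adjusted p. The summed granulocyte marker signal also differed between the groups, and its part in the result was not tested.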

How the results depend on the processing

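Of 1660 member values recomputed under 19 settings, 1583 kept their direction and side of the threshold, 20 lost the call, 33 gained it and 24 changed sign, 0 of these with an adjusted p under 0.05. The Cd86 differences between genotypes and the LPS rises of Cd69, Cd274, Cd83, Icam1 and the 3 bright Cd40 probes kept their calls in all settings that tested them. So did Cd44 ILMN_2474229 for LPS in the labelled knockout and for the labelled knockout under LPS, and Cd40 ILMN_2496288 for LPS in wild type. The fit with the replicate number as a block called 10 and 9 member probes for LPS in the labelled knockout and wild type, 5 and 6 for the labelled knockout under LPS and unstimulated, and 0 for the difference of the LPS effect. Over all probes the block gave 2014, 1947, 1667, 1143 and 588, and it changed no member's call. The chip as a block was not run, since no header or label names a chip.

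Member probes called for the unstimulated labelled knockout numbered 3 with an offset of 50, without background correction and on the authors' values, 2 of 9 with the brightest probe per gene (8307 probes in all) and 13 with no minimum fold. Under LPS these were 1 of 9 (brightest probe) and 13 (no minimum fold), and for LPS in the labelled knockout 6 of 9 (brightest probe), against 10 of 18. For the difference the count was 1 with an offset of 50, detection on at least 4 arrays or a trended robust variance, Cd44 ILMN_2474229 in each, and 1 with no minimum fold, Cd86 ILMN_2743244. Leaving out each array gave ranges of 10 to 11 and 9 to 9 for LPS in the labelled knockout and wild type, 5 to 6 and 4 to 7 for the labelled knockout under LPS and unstimulated, and 0 to 1 for the difference (1, the same Cd44 probe, without replicate 2 of unstimulated wild type). All probes called for LPS in the labelled knockout numbered 2015, and 949 without background correction, 970 on the authors' values, 1234 by brightest probe and 6465 with no minimum fold. For LPS in wild type these were 1948, then 947, 951, 1166 and 6528. With an offset of 50 first, the labelled knockout under LPS gave 1666, then 1081, 662, 673, 927 and 6249, unstimulated 1142, then 735, 495, 512, 706 and 4673, and the difference 608, then 354, 197, 199, 318 and 1188. Median scaling moved the median of all probes to -0.25 for LPS in the labelled knockout, -0.30 for the labelled knockout under LPS and -0.22 for the difference, with 837 higher and 1439 lower, 540 and 1483, and 179 and 713. The main splits were 1094 and 921, 880 and 786, and 273 and 335. Without background correction LPS in the labelled knockout split 622 and 327 and the difference 114 and 83, on the authors' values 639 and 331, and 117 and 82. With no minimum fold LPS split 2769 and 3696 in the labelled knockout and 2944 and 3584 in wild type.

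Changes of sign had no adjusted p under 0.05. For the difference of the LPS effect, Cd40 ILMN_2502136 read -0.094 (offset 50), -0.33 (no background correction) and -0.31 (authors' values), and ILMN_3115796 0.14 (cyclic loess). With median scaling LPS in the labelled knockout gave -0.15 for Cd44 ILMN_2730266 and -0.091 for Cd86 ILMN_1216386. Leaving out each array spanned 0 for Cd80 with LPS in wild type (-0.29 to 0.53), Cd86 ILMN_1216386 with LPS in the labelled knockout (-0.0195 to 0.21), Icam1 unstimulated (-0.14 to 0.34) and Icosl under LPS (-0.21 to 0.017) between genotypes. It did so for Cd44 ILMN_2730266 with LPS in the labelled knockout (-0.15 to 0.22), unstimulated (-0.18 to 0.37) and under LPS (-0.37 to 0.0025). For the difference it did so for Cd40 ILMN_2496288 (-0.56 to 0.012) and ILMN_3115796 (-0.17 to 0.15), and Cd44 ILMN_1223697 (-0.20 to 0.078) and ILMN_2754990 (-0.25 to 0.96). The causes were not tested.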

Other observations

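Some member probes were too dim to test. The second Cd69 probe, ILMN_2586179, read 5.35 and 5.55 on the labelled knockout LPS arrays, 4.97 and 5.71 without LPS, 5.44 and 5.33 on the wild-type LPS arrays, and 5.90 and 5.53 without LPS. The genotypes overlapped with and without LPS, and the LPS and unstimulated arrays overlapped in the labelled knockout and not in wild type, where the LPS arrays were lower. Of the Cd44 probes left out, ILMN_2640330 read 5.96 and 6.02 on the labelled knockout LPS arrays, 5.32 and 5.39 without LPS, 5.55 and 5.47 on the wild-type LPS arrays, and 5.29 and 5.12 without LPS, with detection on 1 array. Those values are highest on the labelled knockout LPS arrays, as for ILMN_2474229. The Cd80 probe left out, ILMN_2770381, was detected on 0 arrays. It read 4.90 and 5.03 on the labelled knockout LPS arrays and 5.10 and 4.91 without LPS. On the wild-type arrays it read 5.30 and 5.13 with LPS and 5.72 and 5.20 without. The labelled knockout was thus the lower genotype on this probe, opposite to the kept Cd80 probe.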
